A study of Rattus norvegicus with 46 samples.

Results

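Genes for the intestinal absorption of phosphate and calcium were followed at the top and the bottom of duodenal villi in rats kept on different iron supplies. The genes were taken by symbol from the annotation of the array for their roles in absorption, and the rule used no measured value, though earlier results of these data were known when the group was proposed. Of 9 symbols, 8 had a probe set with exactly that 1 symbol, out of 14217 genes annotated in this way: Slc34a2, Slc20a1, Slc20a2, Xpr1, Trpv6, S100g, Atp2b1 and Vdr. Cyp24a1 was not analysed here. The 8 genes had 11 probe sets, 3 for Atp2b1 and 2 for Slc20a2, and all 11 passed the filter on low values, as did 26517 of 31042 probe sets in all. The brightest probe set stands for each gene, and the dimmer ones are given beside it.

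Dietary phosphate crosses the brush border through sodium-coupled transporters, of which NaPi-IIb, encoded by Slc34a2, is the main regulated one of the small intestine, while PiT-1 (Slc20a1) and PiT-2 (Slc20a2) belong to a separate family and XPR1 exports phosphate from cells. Transcellular calcium absorption is most active in the duodenum and runs through the apical channel TRPV6, the cytosolic carrier calbindin-D9k (S100g) and the basolateral calcium pump PMCA1 (Atp2b1). The vitamin D receptor (Vdr), bound to the hormonal form of vitamin D, is known to raise expression of the calcium genes in enterocytes.

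Affymetrix arrays had been hybridised with RNA from a duodenal segment cut by cryostat across the crypt-villus axis, with 1 array for the upper and 1 for the lower part of the villi of each rat. Repleted Wistar rats (3 rats) had lived for 4 weeks on food poor in iron, with 2 to 3 ml of blood drawn at intervals of 3 days, and drank 50 µM ferric ammonium citrate during the last 3 days. Low-iron Wistar rats (4 rats) had the same food and blood loss without the iron drink. Belgrade b/b rats, homozygous for a mutation of the iron transporter Slc11a2 on a Wistar background, were kept on a normal diet (4 rats) or fed iron for 3 days (4 rats) or 6 days (3 rats). Control Wistar +/+ rats (4 rats) had a normal diet. Every group was fasted overnight before death. The Wistar rats were 1 month old when they were grouped, and an age is not given for the Belgrade rats. One more +/+ rat, from a separate experiment, gave 1 array labelled lower crypt and 1 labelled upper crypt.

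Medians of the 44 villus arrays ran from 597 to 1179 intensity units. The highest was that of the top array of repleted rat 3, against at most 757 in the other top arrays. The robust SD of its differences from the other repleted top arrays was 0.71 and 0.73, against at most 0.59 for other pairs of top arrays within a group. Levels are log2 of the quantile-normalized intensity plus 44, and differences are differences of these levels. Control rats 1 and 2 gave nearly identical arrays, and so did Belgrade rats 1 and 2 on a normal diet, so each pair was averaged and counted as 1 sample, which left 20 counted samples: 3 repleted, 4 low-iron, 3 Belgrade, 4 Belgrade fed iron for 3 days, 3 Belgrade fed iron for 6 days and 3 control. Whether these pairs are repeats of 1 animal is not known. Bottom arrays stood apart in what else they held. The mean level of 12 smooth muscle and stroma markers was 15.62 in the bottom array of repleted rat 3 and 15.72 in that of control rat 3, against 12.66 to 14.84 in the other bottom arrays. The mean level of 9 measured enterocyte markers was 12.54 and 13.17 in those same arrays. The mean of 11 exocrine pancreas markers was 12.26 or more in 6 bottom arrays (those of control rats 1 and 2, low-iron rat 1, Belgrade rat 3, Belgrade 3-day rat 4 and Belgrade 6-day rat 2) and 8.58 or less in the other bottom arrays. In such bulk sections, fewer cells of a type and less RNA per cell cannot be told apart. Xist, the transcript of the inactive X chromosome, exceeded a level of 12 in 1 repleted, 0 low-iron, 1 Belgrade, 1 Belgrade 3-day, 3 Belgrade 6-day and 1 control rat. Comparisons of the 6-day group with other Belgrade rats therefore also set rats with high Xist against rats with mostly low Xist.

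RefSeq promoters, from 250 bases before to 50 bases after an annotated start, were found for 5 of the 8 genes. Those of Slc34a2 and Trpv6 are shown because these genes had the largest group difference and the largest villus gradient among the members below. Both are on the minus strand of build GRCr8, at chr14:62143023-62143322 for Slc34a2, which lies inside the annotated span of the gene (chr14:62123313-62153020), and at chr4:71489618-71489917 for Trpv6. Capitals mark any match, on either strand, to the hexamer AGGTCA, to its variant AGGTGA, to the variant GGGTGA or to the variant GGTTCA, which are of the kind bound by nuclear receptors.
Slc34a2: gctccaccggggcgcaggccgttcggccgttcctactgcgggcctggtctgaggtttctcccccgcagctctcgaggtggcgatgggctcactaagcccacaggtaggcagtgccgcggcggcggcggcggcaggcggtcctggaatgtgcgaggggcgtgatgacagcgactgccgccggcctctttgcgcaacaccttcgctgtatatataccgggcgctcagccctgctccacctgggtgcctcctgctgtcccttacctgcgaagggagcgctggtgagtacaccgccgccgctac
Trpv6: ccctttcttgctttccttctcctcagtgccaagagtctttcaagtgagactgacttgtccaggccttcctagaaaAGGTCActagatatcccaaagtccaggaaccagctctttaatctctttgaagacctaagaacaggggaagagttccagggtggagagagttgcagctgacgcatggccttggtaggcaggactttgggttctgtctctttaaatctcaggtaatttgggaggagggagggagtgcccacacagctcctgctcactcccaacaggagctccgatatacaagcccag
The Slc34a2 window held none of the hexamers and the Trpv6 window held 1, AGGTCA. Xpr1 had AGGTCA and Vdr had GGTTCA on the opposite strand, at 1 place each, and Atp2b1 had none. Of 33469 promoters of this length, 16.2% held AGGTCA, 16.9% AGGTGA, 15.3% GGGTGA, 11.7% GGTTCA and 46.9% at least 1 of these, so 3 of 5 is close to that share.

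Slc34a2, the phosphate transporter of the brush border, was the member with a group difference past the test, in repleted against control Wistar rats. It was lowest in repleted rats. The limma test for any difference among the 6 groups passed for no member (lowest adjusted p = 0.117). At the villus top its level was 6.62, 7.21 and 6.32 in repleted rats 1 to 3. In low-iron rats 1 to 4 it was 9.44, 9.43, 8.57 and 8.82. In control rats 1 to 4 it was 11.14, 10.62, 11.25 and 10.89. The 3 Wistar groups did not overlap, with repleted rats lowest, low-iron rats between and control rats highest. As deposited, the intensity was 51.5, 96.0 and 82.1 in repleted rats, 311.4 to 593.0 in low-iron rats and 1396 to 2585 in control rats, so the repleted values lie near the 44 units added before the log2.

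At the villus bottom Slc34a2 was at 8.03, 6.65 and 8.74 in repleted rats. In low-iron rats it was at 10.06, 10.28, 10.82 and 9.26, and in control rats at 11.50, 11.23, 9.72 and 10.18. Repleted rats were again below every low-iron and every control rat, while low-iron and control rats overlapped.

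**Figure D1:**
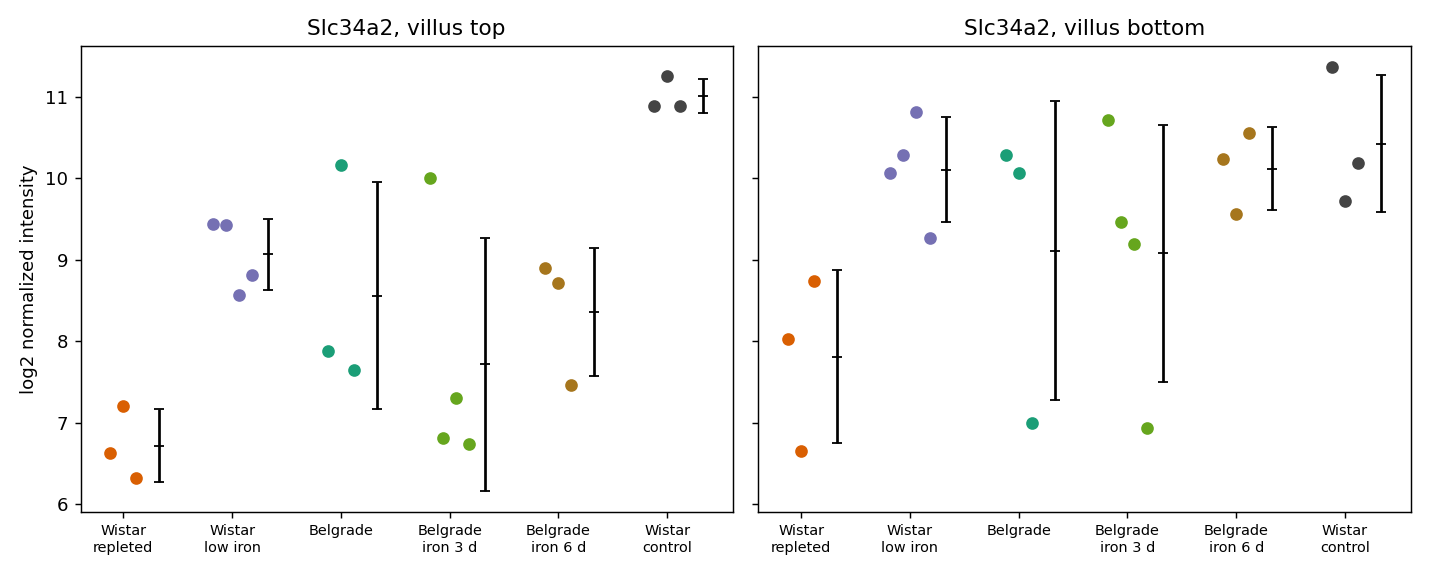
Slc34a2 level (log2 normalized intensity, y axis) at the villus top (left) and bottom (right) in the 6 groups (x axis); points are counted samples and the bars beside them give the mean ± SD. The 3 repleted samples lie at 6.32 to 7.21 at the top, below the control samples at 10.88 to 11.25, and the Belgrade samples spread from 6.74 to 10.16, some of them within the repleted range.

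Averaged over top and bottom, Slc34a2 fell to 7.26 ± 0.30 (SD, n = 3) in repleted rats, against 10.72 ± 0.35 (SD, n = 3) in control rats, a difference of -3.46 ± 0.65 (SE; 95% interval -4.80 to -2.11; adjusted p = 0.0409). The size depends on the 44 added, being -3.71 with 22 and -3.09 with 88, and no fold is given because the repleted top arrays held Slc34a2 at the 8.21 to 17.4 percentile of their probe sets. At the villus top it fell to 6.72 ± 0.45 in repleted rats, against 11.01 ± 0.21 in control rats (SD, n = 3 each), a difference of -4.29 ± 0.78 (SE, adjusted p = 0.0374). The bottom difference, -2.62 ± 0.84 (SE, adjusted p = 0.257), did not pass, and the difference between the top and bottom effects was -1.67 ± 0.93 (SE, adjusted p = 0.575). A single rat could end the call: without control samples 1-2, 3 or 4, or repleted rat 2, the adjusted p was 0.140, 0.157, 0.0843 and 0.0856, with differences of -3.25, -3.57, -3.54 and -3.29. The top call ended without control samples 1-2, 3 or 4 (adjusted p = 0.139, 0.1 and 0.0809), and also without the trend (0.0691) and with only the 2 groups in the fit (0.183). Exocrine pancreas markers at the top were at 7.57 to 8.38 in repleted rats and 8.44 to 11.28 in control rats. Control rats 3 and 4, whose pancreas markers were at 7.87 to 8.56 in both segments, had Slc34a2 at 11.25 and 10.89 at the top and at 9.72 and 10.18 at the bottom, where control rats 1 and 2, with pancreas markers at 14.52 and 14.55, had 11.50 and 11.23. Other bottom arrays were also high in pancreas markers. Low-iron rat 1 (15.98) had Slc34a2 at 10.06, against 10.28, 10.82 and 9.26 in low-iron rats 2 to 4. Belgrade rat 3 (12.77) had 10.06, against 10.55, 10.01 and 6.996 in Belgrade rats 1, 2 and 4. Belgrade 3-day rat 4 (13.22) had 6.94 and Belgrade 6-day rat 2 (12.26) had 9.56, each the lowest bottom value of its group. The part of the pancreas RNA in the difference was not tested.

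The other Wistar comparisons of Slc34a2 did not pass. Against low-iron rats, repleted rats averaged 7.26 against 9.58, a difference of -2.32 ± 0.61 (SE, adjusted p = 0.181), and all 3 lay below all 4 low-iron rats. Low-iron rats differed from control rats by -1.13 ± 0.61 (SE, adjusted p = 0.411) over both segments and by -1.95 ± 0.73 (SE, adjusted p = 0.236) at the top, where the groups were separate. These 3 comparisons share groups, so their differences are not independent of each other.

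Belgrade rats had no single Slc34a2 level. On a normal diet, top arrays of rats 1 to 4 read 6.50, 9.26, 10.16 and 7.64, and bottom arrays read 10.55, 10.01, 10.06 and 6.996. After 3 days of iron, rats 1 to 4 read 10.005, 6.81, 7.30 and 6.74 at the top and 10.72, 9.46, 9.19 and 6.94 at the bottom. After 6 days, the 3 rats read 8.90, 8.72 and 7.46 at the top and 10.24, 9.56 and 10.56 at the bottom. Values within the first 2 of these groups covered more than 3 log2 units, and the 3 groups overlapped. Belgrade rats 1 and 2, which otherwise gave nearly identical arrays, differed by 2.75 in Slc34a2 at the top, with deposited intensities of 38.9 and 553.5, so this dim probe set can vary widely between arrays that agree elsewhere. Belgrade rats on a normal diet averaged 8.84 ± 1.41 (SD, n = 3), against 10.72 in control rats, a difference of -1.88 ± 0.65 (SE, adjusted p = 0.650), or -1.12 without Belgrade rat 4. In order of their means the groups ran control, low-iron, Belgrade 6-day (9.24), Belgrade, Belgrade 3-day (8.39) and repleted, and apart from control and low-iron no neighbours in this order differed by more than the larger of their SDs.

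**Figure D2:**
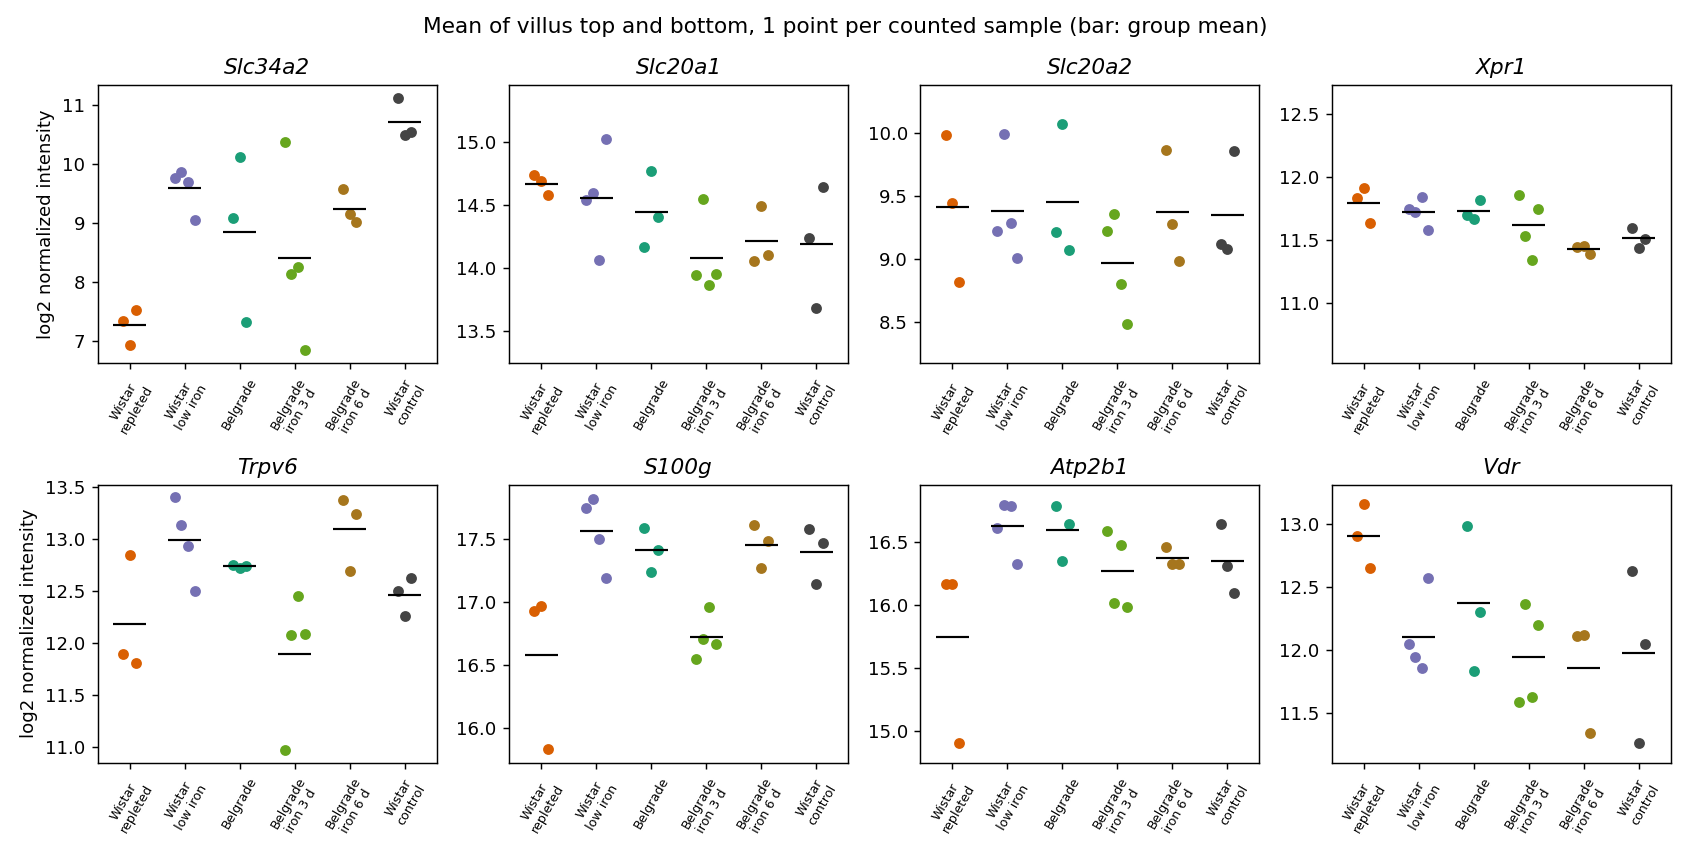
Level of each of the 8 genes (log2 normalized intensity, y axis, mean of villus top and bottom) in the 6 groups (x axis); points are counted samples and bars are group means. Slc34a2 is lowest in the repleted samples (mean 7.26) and highest in control (10.72), while Slc20a1, Slc20a2 and Xpr1 overlap across most groups.

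The other phosphate genes did not follow Slc34a2. Slc20a1, the sodium-phosphate cotransporter PiT-1, averaged 14.66 ± 0.08 in repleted rats, 14.55 ± 0.39 in low-iron rats and 14.19 ± 0.48 in control rats (SD, n = 3, 4 and 3). The difference between repleted and control rats was 0.48 ± 0.24 (SE, 95% interval -0.02 to 0.98, adjusted p = 0.354), with overlapping groups. At the villus bottom the repleted rats read 13.82, 13.82 and 13.85, above the control rats at 13.27, 13.20, 13.09 and 13.38, by 0.59 ± 0.24 (SE, adjusted p = 0.390). This did not pass either.

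Slc20a2, encoding PiT-2, averaged 9.41 in repleted, 9.38 in low-iron, 9.45 in Belgrade and 9.35 in control rats. Its difference between repleted and control rats was 0.06 (95% interval -0.76 to 0.88), and its dimmer probe set gave 0.30 (95% interval -0.73 to 1.33). The dimmer probe set differed by 1.99 at the top between the near-identical control rats 1 and 2, and the brighter one by 0.01. Xpr1, the phosphate exporter, kept within 10.94 to 12.19 over all 44 villus arrays. It averaged 11.80 ± 0.15 in repleted rats and 11.52 ± 0.08 in control rats (SD, n = 3 each), and the 2 groups were separate, but the difference of 0.28 ± 0.17 (SE, adjusted p = 0.445) did not pass. At the villus bottom Xpr1 averaged 11.69 in Belgrade rats on the normal diet, against 11.21 in control rats (0.48 ± 0.22, SE, adjusted p = 0.747). It averaged 11.12 there after 6 days of iron, against 11.69 on the normal diet (-0.57 ± 0.22, SE, adjusted p = 0.994), with separate groups in both. Slc20a2 in Belgrade rats averaged 7.88 at the top after 3 days, against 9.37 on the normal diet (-1.49 ± 0.68, SE, adjusted p = 1), and 10.20 at the bottom after 6 days, against 9.53 (0.67 ± 0.30, SE, adjusted p = 0.994, or 0.35 without Belgrade rat 4). None of these passed.

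No group difference of a calcium gene passed the test. After 3 days of iron all 8 members, calcium genes or not, had a negative difference from Belgrade rats on the normal diet, and none passed. Their median was -0.43, beside 0.01 over all probe sets. The 8 differences come from the same samples, so their signs are not independent of each other. S100g, the calcium carrier calbindin-D9k, read 17.34, 17.33 and 17.63 at the villus top in repleted rats. Low-iron rats read 17.84, 17.84, 17.54 and 17.79 there, and control rats 17.84, 17.84, 17.91 and 17.84. Quantile normalization gives each rank 1 fixed value, so arrays where this very bright probe set had the same rank share a level, and small differences at the top of the scale are hard to see. The top values as deposited, without that normalization, put repleted rats 0.24 above both low-iron and control rats, where the normalized differences were -0.32 and -0.44. The deposited intensities were 205298, 195955 and 601955 in repleted rats, against 205152 to 299645 in low-iron and 209022 to 280866 in control rats, so the turn goes with the single array of repleted rat 3, and no direction is given for S100g at the top (adjusted p = 0.389 and 0.203 for the normalized differences).

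At the villus bottom S100g read 16.50, 16.61 and 14.04 in repleted rats, 17.63, 17.79, 17.45 and 16.59 in low-iron rats and 17.30, 17.29, 16.36 and 17.09 in control rats. Repleted rat 3, the lowest, is the rat whose bottom array had low enterocyte and high stroma markers. It is also the repleted rat with high Xist, at 14.27, against 6.05 and 7.70 in repleted rats 1 and 2. At the bottom repleted rats differed by -1.64 ± 0.43 (SE, adjusted p = 0.180) from low-iron rats and by -1.20 ± 0.46 (SE, adjusted p = 0.356) from control rats, and without repleted rat 3 these bottom differences were -0.81 and -0.36. Over both segments they differed by -0.98 ± 0.21 (SE, adjusted p = 0.151) from low-iron rats and by -0.82 ± 0.23 (SE, adjusted p = 0.106) from control rats, with separate groups in both comparisons. Without repleted rat 3 the differences were -0.61 (adjusted p = 0.366) and -0.45 (adjusted p = 0.241). Without low-iron rat 4, or without repleted rat 1, the difference from low-iron rats was -1.11 (adjusted p = 0.0136) and -1.16 (adjusted p = 0.0406), so these calls turn on single rats.

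In Belgrade rats S100g at the bottom read 17.33, 17.49, 16.90 and 17.25 on the normal diet, 15.64, 16.29, 16.24 and 15.96 after 3 days of iron and 17.43, 16.93 and 17.11 after 6 days. All 4 rats of the 3-day group lay below every other Belgrade rat, by -1.15 ± 0.43 (SE, adjusted p = 1) against the normal diet. Over both segments the 3-day group averaged 16.72 ± 0.17 (SD, n = 4), against 17.41 ± 0.17 (SD, n = 3) on the normal diet, a difference of -0.69 ± 0.21 (SE, 95% interval -1.13 to -0.25, unadjusted p = 0.00379, adjusted p = 1). The 6-day group averaged 17.45 ± 0.17 (SD, n = 3), 0.73 ± 0.21 (SE, adjusted p = 0.961) above the 3-day group. Neither difference passed over all probe sets. S100g lies on the X chromosome, and Xist exceeded a level of 12 in all 3 rats of the 6-day group. It did so in 1 of 4 rats of the 3-day group and 1 of 4 on the normal diet. Days of iron and Xist level are thus not separate in the 6-day comparison. The mean level of the enterocyte markers at the bottom was 13.83 to 15.16 in the 3-day rats, 14.15 to 15.09 in the 6-day rats and 14.76 to 15.54 in Belgrade rats on the normal diet, and the part of this in the S100g values was not tested.

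Trpv6, the apical calcium channel, was also lowest at 3 days among the Belgrade groups. At the top it read 14.31, 14.42, 14.29 and 14.41 on the normal diet, 12.04, 13.79, 14.22 and 13.88 after 3 days and 15.00, 14.78 and 15.08 after 6 days. The 3 groups did not overlap. Averaged over both segments the levels were 12.74 ± 0.01 (SD, n = 3), 11.90 ± 0.64 (SD, n = 4) and 13.10 ± 0.36 (SD, n = 3). The 3-day group differed from the normal diet by -0.84 ± 0.29 (SE, adjusted p = 1), with -0.87 at the top and -0.81 at the bottom. Without 3-day rat 1 the difference was -0.53 over both segments and -0.39 at the top, so much of it rests on that rat. The 6-day group differed from the 3-day group by 1.21 ± 0.29 (SE, unadjusted p = 0.000443, adjusted p = 0.818). Xist was high in all 3 rats of the 6-day group and in 1 of 4 of the 3-day group, and with Xist as a covariate the difference was 1.16. Each other group had at most 1 rat with high Xist for that fit to rest on. The value of 1.16 therefore does not separate days of iron from Xist level. Rat 1 of the 3-day group had the lowest Trpv6 of any top array, 12.04, and the highest Slc34a2 of its group, 10.005.

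In Wistar rats Trpv6 averaged 12.18 ± 0.58 in repleted, 12.99 ± 0.38 in low-iron and 12.46 ± 0.19 in control rats (SD, n = 3, 4 and 3). Repleted rats differed from low-iron rats by -0.81 ± 0.29 (SE, adjusted p = 0.264) and from control rats by -0.28 ± 0.31 (SE, adjusted p = 0.717). Most of the first difference lay at the villus bottom, -1.23 ± 0.37 (SE, adjusted p = 0.221), where repleted rats read 9.85, 10.95 and 9.81 and low-iron rats 12.05, 11.66, 11.68 and 10.32. Low-iron rat 4 overlapped the repleted rats there, and without it the bottom difference was -1.59 (adjusted p = 0.0232).

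Atp2b1, the basolateral calcium pump, read 16.85, 16.70 and 15.74 at the top in repleted rats, 17.10, 17.16, 17.20 and 16.90 in low-iron rats and 17.30, 17.28, 17.39 and 17.22 in control rats. On this brightest probe set repleted rats lay below both other groups. The top difference was -0.87 ± 0.24 (SE, adjusted p = 0.0942) from control rats and -0.66 ± 0.22 (SE, adjusted p = 0.282) from low-iron rats, and neither passed. At the bottom repleted rats differed from low-iron rats by -1.10 ± 0.30 (SE, adjusted p = 0.192), and low-iron rats averaged 16.16, against 15.39 in control rats (0.77 ± 0.30, SE, adjusted p = 0.288). The dimmer probe sets gave 0.27 and -0.26 there, so the probe sets did not share a direction. Over both segments the differences were -0.60 ± 0.25 (SE, adjusted p = 0.268) from control rats and -0.88 ± 0.24 (SE, adjusted p = 0.186) from low-iron rats. Without repleted rat 3 these were -0.18 (adjusted p = 0.709) and -0.46 (adjusted p = 0.546), the top differences were -0.52 and -0.31 and the bottom difference from low-iron rats was -0.60, so much of the size rests on that rat, and without low-iron rat 4 the second was -0.98 (adjusted p = 0.0462). The 2 dimmer probe sets gave -0.38 and -1.32 (adjusted p = 0.639 and 0.222) against control rats, and -0.16 and -0.75 against low-iron rats. At the top the brighter of these 2 read 15.22, 15.11 and 16.27 in repleted rats and 15.11, 15.19, 15.06 and 15.63 in low-iron rats. Control rats read 16.10, 16.19, 16.38 and 15.38, so the 3 groups overlapped. Repleted rat 3 was the highest repleted top there and the lowest on the brightest probe set. The dimmest gave -1.14 at the top and -1.49 at the bottom against control rats (adjusted p = 0.258 and 0.474), with the bottom value at -0.44 without repleted rat 3, and the other gave -1.08 at the bottom for Belgrade rats after 3 days against the normal diet (adjusted p = 1), or -0.66 without Belgrade rats 1 and 2.

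Vdr, the vitamin D receptor, had positive differences over both segments in repleted rats, where those of the calcium genes were negative. None of these differences passed. At the bottom it read 12.93, 13.02 and 12.22 in repleted rats, 11.61, 11.54, 11.45 and 11.996 in low-iron rats and 12.04, 12.24, 10.47 and 11.13 in control rats. Repleted rats lay above every low-iron rat, and repleted rat 3 lay just below control rat 2. The bottom difference was 1.48 ± 0.46 (SE, adjusted p = 0.232) from control rats and 1.07 ± 0.43 (SE, adjusted p = 0.310) from low-iron rats. Over both segments they averaged 12.90 ± 0.25 (SD, n = 3), 0.80 ± 0.30 (SE, adjusted p = 0.292) above low-iron rats and 0.92 ± 0.32 (SE, adjusted p = 0.182) above control rats, and neither difference passed. Without control rat 3, whose bottom array was high in stroma markers, the second was 0.57 (adjusted p = 0.522). In Belgrade rats Vdr at the top averaged 12.32 after 6 days of iron, against 12.98 on the normal diet (-0.66 ± 0.30, SE, adjusted p = 1), with separate groups.

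**Figure D3:**
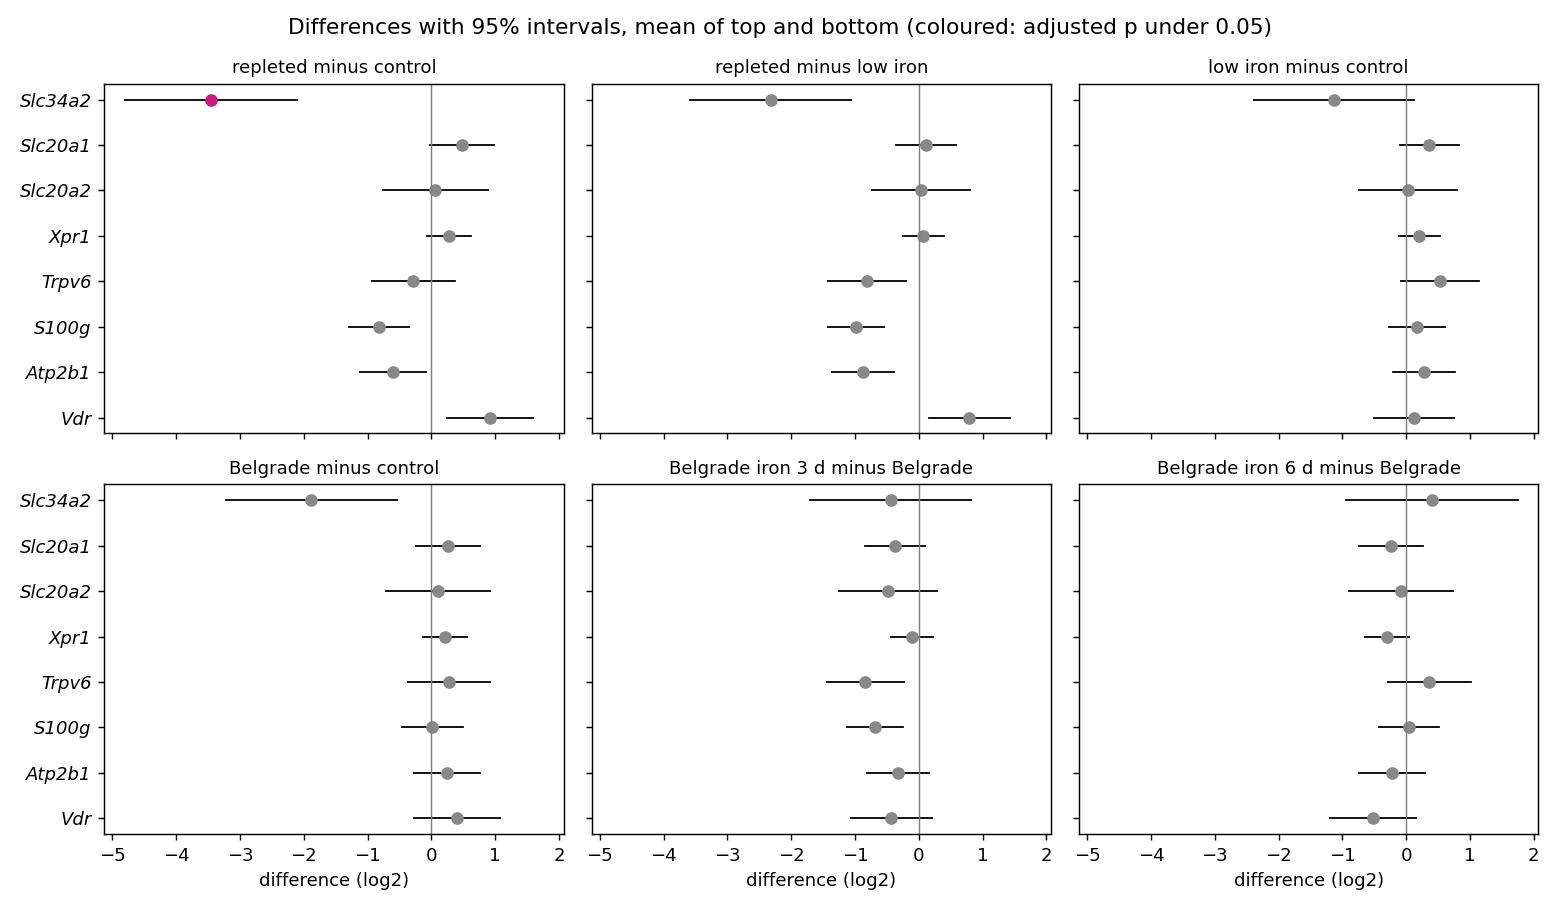
Differences in level (log2, x axis) of the 8 genes (y axis) in 6 comparisons, on the mean of top and bottom; dots are limma estimates, lines are 95% intervals, and colour marks an adjusted p under 0.05. The coloured dot is Slc34a2 in repleted minus control (-3.46), and in repleted minus low-iron the intervals of 5 genes (Slc34a2, S100g, Trpv6, Vdr and Atp2b1) leave out 0 without passing the adjustment.

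Counts of members are given here beside the share over all probe sets. In repleted against control rats 1 of the 8 genes passed, lower, where 0.0679% of all probe sets passed and 0.0339% passed lower, and the groups were separate for 4 of 8 genes against 17.9% of all probe sets. At the villus top 1 of 8 passed, lower, beside backgrounds of 0.207% and, for lower, 0.158%, and at the bottom 0 of 8 beside 0%. In low-iron against control rats 0 of 8 passed, beside 0.404% for both segments together, 0.977% at the top and 0% at the bottom, and the groups were separate for 1 gene, beside 15.2%. In repleted against low-iron rats 0 of 8 passed, beside 0% for both segments together and in each segment, while 5 of 8 had an unadjusted p under 0.05, beside 12.8%, and 4 were separate, beside 7.54%.

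In Belgrade against control rats 0 of 8 genes passed, beside 0.0113% for both segments together, 0.0905% at the top and 0.00377% at the bottom, and 3 were separate, beside 13.2%. In Belgrade against low-iron rats 0 of 8 passed, beside 0%, no member had an unadjusted p under 0.05, beside 4.6%, and 0 were separate, beside 5.64%. After 3 days of iron against the normal diet 0 of 8 passed, beside 0% for both segments together and in each segment, and 2 were separate (S100g and Trpv6), beside 4.35%. After 6 days 0 of 8 passed against the normal diet, beside 0% for both segments together and at the top and 0.00377% at the bottom, and 1 was separate, beside 11.2%. Between 6 and 3 days 0 of 8 passed, beside 0%, and 2 were separate, beside 6.92%. For a difference of any kind among the 6 groups 0 of 8 passed, beside 0.0189%, and 5 had an unadjusted p under 0.05, beside 13.4%.

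Position along the villus was a difference found in every member. Compared within each counted sample, all 8 genes differed between top and bottom, 6 higher and 2 lower at the top, where 54.2% of all probe sets passed, 25.5% higher and 28.8% lower. The makeup of the sections moved along with it. The mean level of enterocyte markers was 16.17 to 17.10 in tops and 12.54 to 15.61 in bottoms, that of dividing-cell and crypt markers was 9.34 to 11.36 in tops and 12.08 to 13.17 in bottoms, and that of Paneth markers was 9.41 to 11.90 in tops and 12.22 to 14.12 in bottoms, and their part in the gradients was not tested. The calcium genes were higher at the top. Trpv6 had the largest difference of the 8 genes, 3.46 ± 0.12 (SE, adjusted p = 3.14e-12), and was higher at the top in 20 of 20 samples, with differences of 2.15 to 4.35. Its level averaged 14.29 at the top and 10.83 at the bottom, a 10.98-fold difference on the scale of intensity plus 44. Atp2b1 was higher at the top by 1.39 ± 0.08 (SE, adjusted p = 3.7e-10) and its dimmer probe sets by 1.87 and 2.11, each in 20 of 20 samples. S100g was higher at the top by 0.91 ± 0.16 (SE, adjusted p = 0.000124), again in 20 of 20 samples, with the widest gap, 3.59, in repleted rat 3 and the narrowest, 0.06, in a low-iron rat. Vdr was higher at the top by 0.98 ± 0.12 (SE, adjusted p = 3.09e-06) in 18 of 20 samples.

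The phosphate genes divided. Slc20a1 was higher at the top by 1.65 ± 0.11 (SE, adjusted p = 1.13e-09) in 20 of 20 samples, while its relative Slc20a2 was lower by 1.30 on the log2 scale (SE 0.20, adjusted p = 2.22e-05) in 18 of 20 samples. The dimmer Slc20a2 probe set was lower at the top in 11 and higher in 9. Xpr1 was higher at the top by 0.40 ± 0.09 (SE, adjusted p = 0.00150) in 17 of 20 samples, and by 0.17 (adjusted p = 0.118) in the values as deposited. Slc34a2 was lower at the top in 15 of 20 samples, with a difference of -0.87 ± 0.26 (SE, adjusted p = 0.00859). By group its top-minus-bottom difference averaged -1.09 ± 1.51 in repleted, -1.04 ± 0.82 in low-iron and 0.59 ± 1.01 in control rats (SD, n = 3, 4 and 3), and -0.55 ± 1.62, -1.36 ± 1.11 and -1.76 ± 1.19 in Belgrade rats at 0, 3 and 6 days of iron (SD, n = 3, 4 and 3). The top was lower in 2 of 3 repleted, 4 of 4 low-iron, 1 of 3 Belgrade, 4 of 4 Belgrade 3-day, 3 of 3 Belgrade 6-day and 1 of 3 control samples. Whether the gradient differed among the 6 groups was tested for each member, and 0 of 8 genes passed, beside 0.00754% of all probe sets; the lowest unadjusted p was that of Atp2b1, 0.0339 (adjusted p = 0.628).

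**Figure D4:**
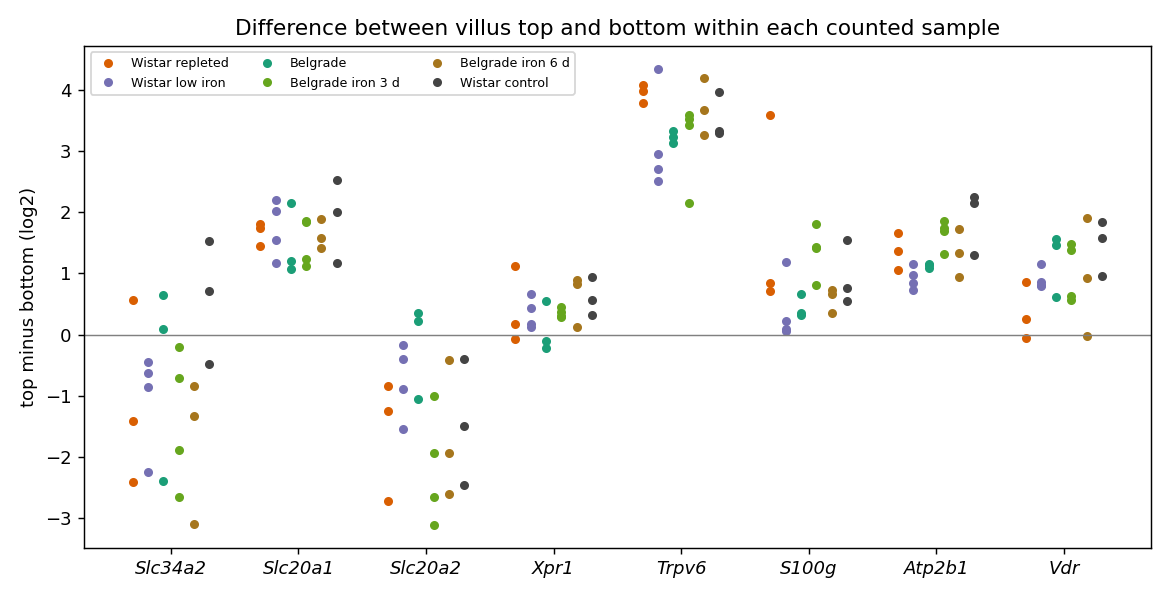
Top-minus-bottom difference in level (log2, y axis) within each counted sample for the 8 genes (x axis), coloured by group. Trpv6, Slc20a1, Atp2b1 and S100g lie above 0 in 20 of 20 samples, and Slc34a2 and Slc20a2 lie mostly below 0.

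The arrays labelled as crypt resembled the 2 villus positions in their markers. Dividing-cell and crypt markers averaged 12.54 in the lower and 10.71 in the upper crypt array, against 12.08 to 13.17 in villus bottoms and 9.34 to 11.36 in villus tops, and enterocyte markers averaged 15.24 and 16.65. Both arrays thus held much enterocyte RNA, and the upper crypt array had values of the kind seen in villus tops. There is 1 array of each, so no test was made. Trpv6 was at 13.42 in the upper and 11.64 in the lower crypt array, Vdr at 12.93 and 11.64, Atp2b1 at 17.15 and 16.09, and S100g at 17.84 and 17.72. Slc20a1 was at 14.37 and 13.67, Xpr1 at 12.43 and 11.54, Slc20a2 at 9.27 and 10.07, and Slc34a2 at 9.33 and 10.32, upper given before lower. Each gene differed in the direction it had between villus top and bottom over all groups. In control samples 1-2, 3 and 4 alone the top-minus-bottom difference of Slc34a2 was -0.48, 1.53 and 0.71, so samples 3 and 4 ran against the crypt pair. The upper crypt level of Slc34a2, 9.33, was below the control villus tops at 10.62 to 11.25.

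**Figure D5:**
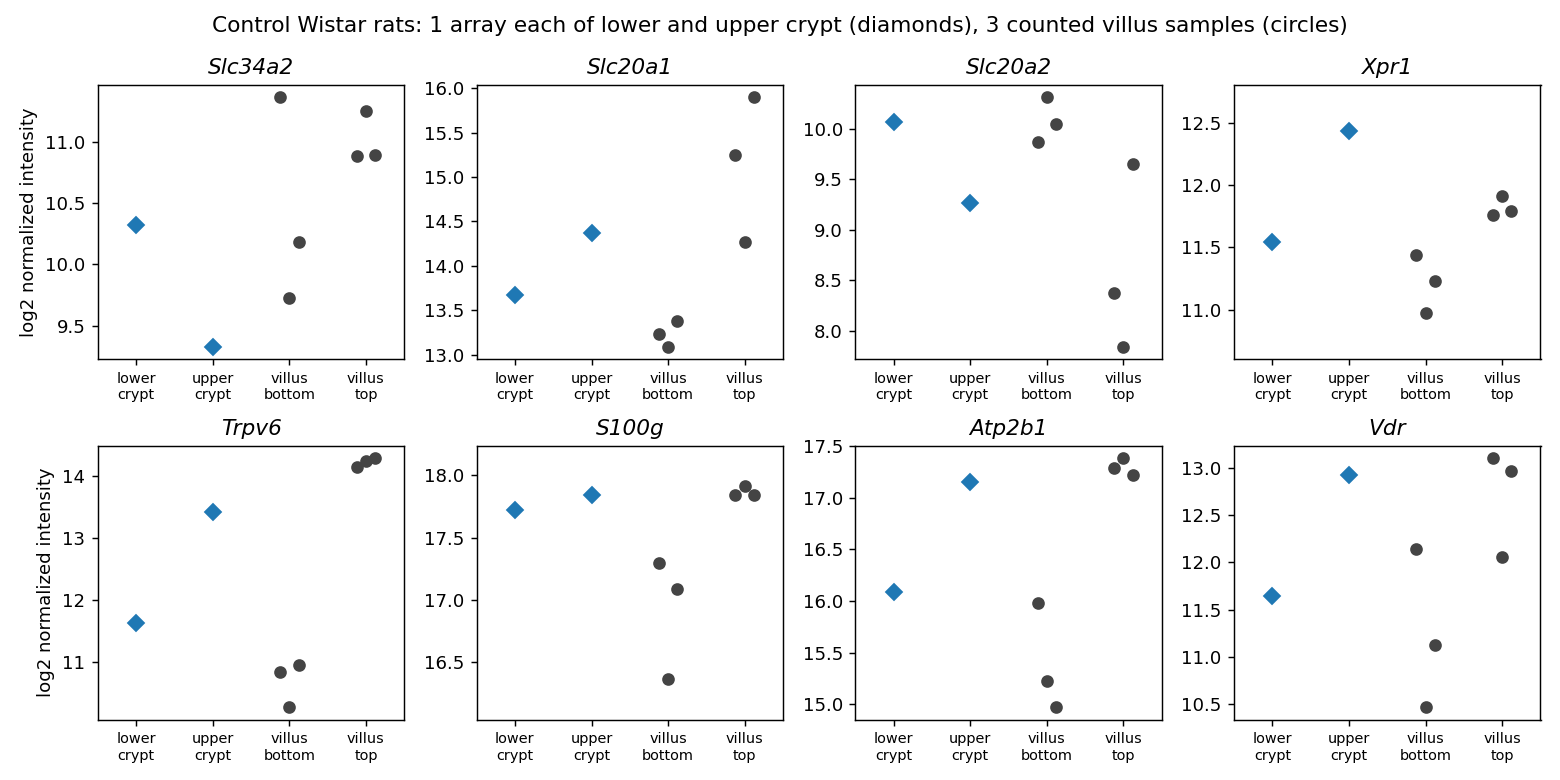
Level of the 8 genes (log2 normalized intensity, y axis) in the single lower and upper crypt arrays (diamonds) and in the villus bottom and top of the 3 counted control samples (circles). Trpv6 lies at 11.64 and 13.42 in the lower and upper crypt arrays, between the control villus bottoms and tops.

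For other genes of these pathways no group difference passed on the mean of top and bottom. Of a list of 12 tested phosphate-handling genes, 22 of calcium transport, 15 of the vitamin D system and 10 hormones, receptors and regulators, 0 passed in any of the 8 comparisons, whose backgrounds are given above. In repleted against control rats the medians of the 4 lists were -0.01, -0.15, -0.15 and -0.07, beside -0.05 over all probe sets. At the villus top, low-iron against control rats, 2 of the 59 listed genes tested passed, beside 0.977% of all probe sets, and were lower: Abcc6, a transporter whose loss causes ectopic mineralization (-1.70, adjusted p = 0.0256), and Cyp3a18, a cytochrome P450 (-1.97, adjusted p = 0.0368).

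Along the villus 8 of the 12 phosphate-handling genes rose at the top and 0 fell, with a median of 0.79 beside 0.02 over all probe sets. Of all probe sets 25.5% were higher and 28.8% lower, against which the counts of the 4 lists are to be read. Among them were Enpp3, an ectonucleotide pyrophosphatase (2.60), Pdzk1, a scaffold of brush border transporters (2.45), Alpi, intestinal alkaline phosphatase (2.204), and Ankh, a pyrophosphate transporter (1.62). Stc1, the hormone stanniocalcin, was higher by 3.06. Of 22 calcium transport genes 4 were higher and 10 lower at the top, with Cldn12, a tight junction claudin, at 1.02 and the channel Trpv5 at 0.76, and with Calb2 (calretinin) at -1.60, Atp2a3, a calcium pump of the endoplasmic reticulum, at -1.52 and Cldn2, a claudin that forms cation pores, at -1.04. Of 15 vitamin D genes 5 were higher, led by Cyp3a9 (2.21) and Cyp3a18 (2.204), and 4 were lower, among them the Vdr partner Rxrb (-1.60), whereas the partner Rxra was higher (0.94). Of 10 hormone-related genes 3 were higher, with the kinase Sgk1 at 3.29, and 3 were lower, with the growth factor receptor Fgfr4 at -1.997. Alpi is also on the list of enterocyte markers.

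The genes whose pattern over the 12 means of group and segment was most like that of a member were looked up among 15252 probe sets of other genes. For Trpv6 they were Slfn2 (Pearson r = 0.996), Nectin2, Mier3, Pard6b and Chn2 (0.989). For S100g they were Ikbkb (r = 0.927), Trim30d, Tifab, Ulk2 and Zfpm1 (0.905). For Slc34a2 they were Prkcq (r = 0.907), Cpb1, St3gal6, Prss2 and Parp10 (0.850), of which Cpb1 and Prss2 encode digestive enzymes of the pancreas. These are descriptions over 12 means that share the same rats and hold both segments, so r takes in the difference between top and bottom. Among the members themselves Trpv6 correlated with Slc20a1 (r = 0.947) and Atp2b1 (0.933) over the 12 means, and Slc34a2 with Trpv6 at -0.25. In group means over both segments Slc20a1 was highest in repleted rats (14.66), where Trpv6 ranked 5 of the 6 groups (12.18).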

How the data were processed

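The deposited values are linear array intensities, 1 per probe set and array, made by the authors; their signal algorithm is not given in the sources used here. The trimmed means were 2862 to 2867 in the top and bottom arrays of control rat 3 and of Belgrade 3-day rat 3. In the other arrays they were 2485 to 2492. Whether the authors scaled the arrays, and these arrays otherwise, is not given in the sources used here. Among the control top intensities as deposited, the 2585 of Slc34a2 and the 209022 of S100g are from control rat 3. From these, log2(intensity + 44) was computed, 44 being the 10th percentile of the villus values, and villus arrays were quantile normalized, since their medians spanned 0.93 on the log2 scale. The crypt arrays were mapped onto the same distribution. Of 31099 probe sets 57 controls were left out, and those above the 40th percentile of their array on at least 3 villus arrays were kept.

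The nearly identical rats were averaged because the robust SD of their differences was at most 0.179, against at least 0.231 for other pairs of rats within any group. The next closest pair, low-iron rats 1 and 2 (0.231 at the top and 0.260 at the bottom), was counted as separate rats. Groups were compared with limma 3.58.1 (R 4.3.3; lmFit and eBayes with a trend) in 1 fit of 6 groups, on the mean of top and bottom, on each segment alone, and on the difference between top and bottom. P-values are two-sided and adjusted by Benjamini-Hochberg over 26517 probe sets, and called under 0.05. The labels do not say more of how rats were drawn. The p-values set a difference against the spread between counted samples of these rats within groups, which limma estimated over all 6 groups. A member's own difference is named where its unadjusted p was under 0.05, other pathway genes where called, and 5 like genes for each of Slc34a2, S100g and Trpv6 by correlation. The fit was tested on simulated data. The members and lists were chosen with earlier results of these data known.

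Promoters and gene spans come from RefSeq tables of GRCr8, not from the array. Promoters were not found for S100g, Slc20a1 and Slc20a2. The alternatives were other pseudocounts, filters and normalizations, no trend, Xist as a covariate, all 22 rats counted separately, a replicate block, only the 2 groups compared, and each sample left out.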

Additional observations from a re-analysis of the deposited data

Results flagged for a closer look

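Within groups of 4 counted samples, 48 sets of values of the 8 genes were screened for a sample far from the others by Dixon's ratio of gap to range at its 95% critical value, and 3 stood out; chance alone gives about 1 in 20. Slc34a2 in Belgrade 3-day rat 1 was at 10.005 at the villus top, against 6.74 to 7.30 in the other 3 rats. Slc20a1 in Belgrade 3-day rat 2 was at 14.55 averaged over both segments, against 13.87 to 13.95 in the others. Xpr1 in low-iron rat 3 was at 12.17 at the top, against 11.78 to 11.83 in the others.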

How the results depend on the processing

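Of 1089 values for 54 single-gene results, 1058 kept their direction and side of the threshold, 13 lost a call, 16 gained one and 2 turned. The 2 that turned were S100g at the villus top in the values as deposited, 0.24 for repleted against low-iron and 0.24 for repleted against control rats, where 1 array, of repleted rat 3, had 601955 units against 195955 and 205298 in the other 2; the cause was not tested. The count of members called in repleted against control rats, 1, was 0 with the values as deposited, with median centring and without the trend, 2 with all rats counted separately, and 0 to 1 with a sample left out. At the top it was 0 without the trend and with only the 2 groups, 2 with Xist as a covariate or all rats separate, and 0 to 2 with a sample left out. Low-iron against control rats at the top went to 1 with only the 2 groups (Slc34a2, adjusted p = 0.0221). Any difference among the groups went to 2 with all rats separate and 0 to 1 with a sample left out, and repleted against low-iron rats to 0 to 2, overall and at the bottom, with a sample left out. The adjusted p of Slc34a2 in repleted against control rats was 0.0589 as deposited, 0.0596 with median centring and 0.0986 without the trend. The rat numbers are not treated as pairing: the deviations of rats with 1 number correlated between -0.07 and 0.31, and no pair of groups (0 of 15) had every value over 0.1. With the replicate block 4 members were called in repleted against control rats, 2 at the top and 1 at the bottom. Over all probe sets the count called in repleted against control rats, 18, ran from 0 (median centring) to 1606 (replicate block), and in low-iron against control rats, 107, from 0 (no trend) to 1317 (replicate block). It ran from 0 to 508 around 0 for repleted against low-iron rats, from 0 to 91 around 3 for Belgrade against control rats and from 0 to 228 around 5 for any difference. At the top it ran from 13 to 1147 around 259 (low-iron against control), 0 to 1329 around 55 (repleted against control), 0 to 237 around 24 (Belgrade against control) and 0 to 67 around 0 (repleted against low-iron). At the bottom it ran up to 491, 587 and 374 around 0 in low-iron against control, repleted against control and repleted against low-iron rats, and up to 15 around 1 in Belgrade against control rats. Top against bottom stayed at 12592 to 14888 around 14382. Group sizes of 3 and 4 limit all group comparisons, and Slc34a2 in repleted rats is near the low end of the signal.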
